A study of Mus musculus with 6 samples.

Results

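Complement and coagulation factors were followed as a set of 39 genes, 18 of complement and 21 of coagulation and fibrinolysis, chosen by name. A gene counted as measured where a non-control probe carried its symbol, either in the bracket of the probe description or through the probe's accession. This held for 31 of the 39 genes, with 1 probe each, out of 9951 genes with a symbol on the array. The other 8 (C3, C8a, C8b, C8g, F9, Pros1, Tfpi and Vwf) had no probe by that rule. Probes for 5 of these 8 (C3, C8a, C8b, C8g and F9), and 1 described as TFPIbeta, could be recognised from the description text alone. They were kept outside the counts of members and are given separately.

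RNA was taken at 39 weeks of age from mice on the C3H/HeNCrlBR(C3He) background and compared on 6 arrays with 2 colours, as 3 dye-swapped pairs. The study set out to find genes that depend on CAR, the drug-sensing nuclear receptor encoded by Nr1i3, and that are induced as liver tumours form. The number of animals behind each RNA, any pooling and the sex of the mice were not given in the sources used here, nor whether a pair's arrays shared 1 RNA extract. The p-values therefore rest on the spread between arrays of opposite dye, which may be technical.

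The groups were WT liver tumour after diethylnitrosamine (DEN) and phenobarbital (PB), CAR-KO liver that had received both agents, CAR-KO liver that had received only DEN, and WT liver that had received both. DEN is a carcinogen that initiates liver tumours and PB is a promoter, given in the drinking water, that acts through CAR. All groups had received DEN, so none was an untreated liver. CAR-KO liver with both agents was on every array. The 3 pairs set WT tumour against it, set it against CAR-KO liver with DEN alone, and set it against WT liver, so all the comparisons below share those RNAs. The tumour and the CAR-KO liver differ in genotype as well as in being tumour or liver, and these cannot be told apart on the arrays of that pair.

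Complement is a cascade of plasma proteases and binding proteins that is started by antibody through C1q, by sugars through the mannose-binding lectins, or by the alternative pathway, and that ends in a pore built from C5b, C6, C7, C8 and C9. Coagulation is a parallel protease cascade, started by tissue factor or by the contact system, that converts fibrinogen to fibrin, which plasmin later dissolves. Hepatocytes make most of the proteins of both cascades and secrete them into blood. C1q, which macrophages make, and complement factor D, an adipocyte product, are among the exceptions.

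Signals are given in the scanner's intensity units after background correction and scaling of the arrays to each other. Ratios are log2 ratios within an array, turned by the labelled dyes so that a positive value means more RNA in the group named first. In all, 29 of the 31 members were well above background in all 12 channels, and Cfd and F3 were in 9 each. None was saturated. Median local background was 53 to 62 on 5 arrays, against 288 and 299 in the green and red channels of array 2 of the tumour pair. The turned ratios of the 2 arrays of a pair correlated across probes at r = 0.391 in the tumour pair, at -0.347 in the PB pair and at 0.0294 in the genotype pair. Genes on an array are not independent replicates, so these r values are descriptions. For Nr1i3 itself, WT liver over CAR-KO liver gave 0.79 ± 0.16 on the log2 scale (limma adjusted p = 0.412). WT tumour over CAR-KO liver gave 1.81 ± 0.16 for it, with 1.71 and 1.90 on the arrays (adjusted p = 0.00194). Where its probe lies relative to the deleted part is not stated, so these values check no label.

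**Figure D1:**
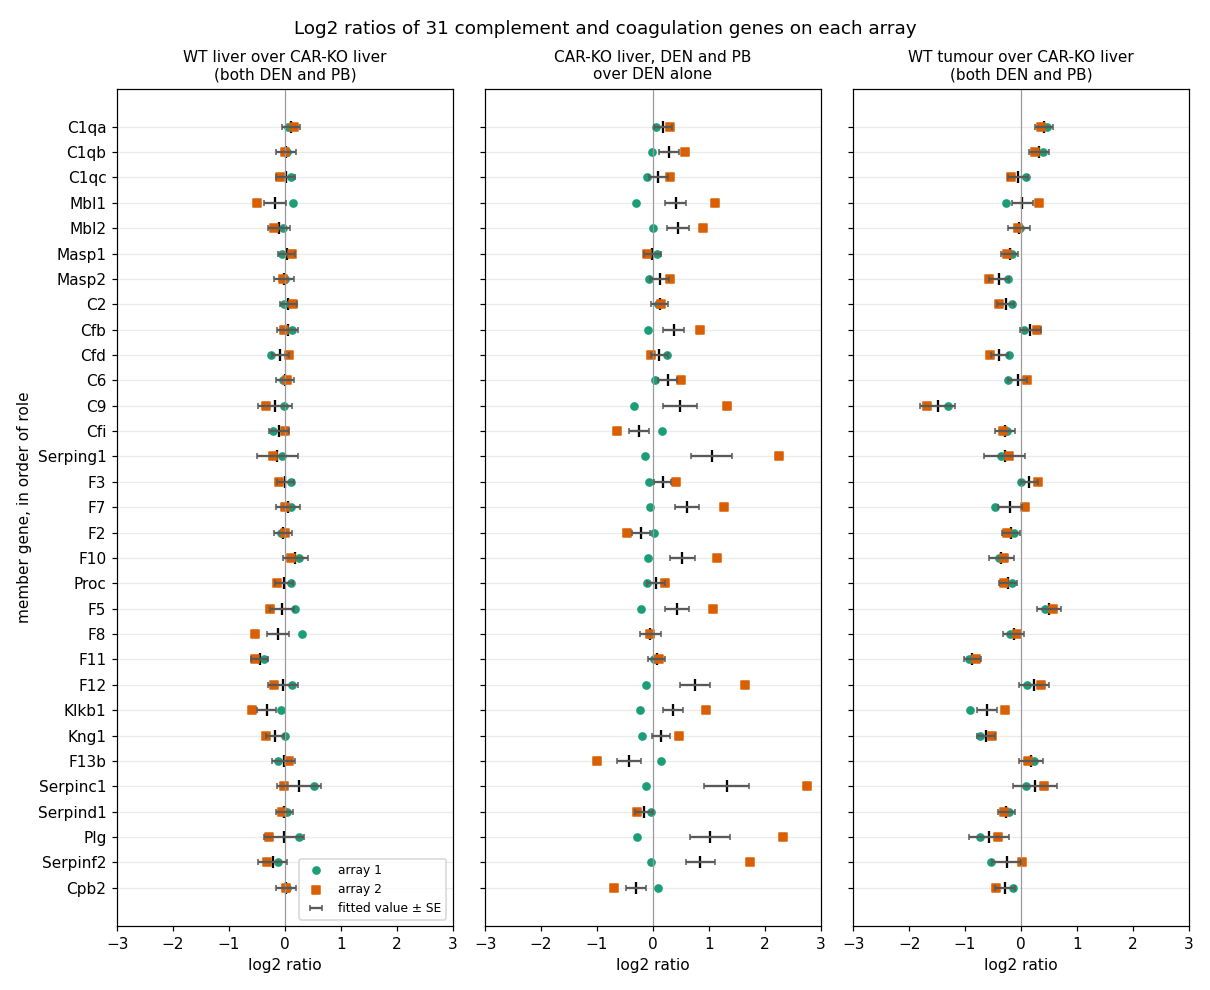
Log2 ratios (horizontal axes) of the 31 measured genes, in order of their role from C1q at the top to fibrinolysis at the bottom, with circles for array 1, squares for array 2 and ticks with bars for the fitted value ± SE. The fitted values of C9 and F11 lie farthest to the left in the tumour panel, with arrays 1 and 2 at -1.30 and -1.69 for C9 and at -0.93 and -0.81 for F11. In the PB panel, array 2 lies at 2.75 and array 1 at -0.12 for Serpinc1.

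In WT tumour over CAR-KO liver, 2 of the 31 members were called and both were lower in tumour. They were C9, the pore-forming last component of complement, and F11, a protease that amplifies thrombin generation. A call means a limma adjusted p under 0.05, with Benjamini-Hochberg adjustment over all 20744 probes tested. The 2 calls are 6.45% of the members, and 3.36% of all probes were called (2.53% higher and 0.839% lower). Of the 31 members, 22 had a negative and 9 a positive log2 ratio, where 50.6% of all probes were negative and 49.4% positive. The members' median was -0.20, against -0.01 over all probes. It was -0.04 without array 2 of the tumour pair, and turned to 0.37 with median centring of each array in place of loess. Both arrays were negative for 18 members and positive for 7. Over all probes, 28.5% were negative and 30.6% were positive on both arrays.

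Terminal complement held the lowest ratio. The C9 probe read 179 and 196 units in WT tumour on arrays 1 and 2, against 441 and 630 units in CAR-KO liver. Over the 3 pairs, the 6 readings of CAR-KO liver with both agents ran from 319 to 630 units, CAR-KO liver with DEN alone read 601 and 128 units, and WT liver read 419 and 282 units. The tumour readings lay below the CAR-KO liver readings with both agents and above 1 of the readings with DEN alone. The log2 ratios were -1.30 and -1.69, and the fitted value was -1.49 ± 0.31 (SE, all 6 arrays), a 2.81-fold lower level in tumour (limma adjusted p = 0.0475). Each SE given here comes from the fit over all 3 pairs, so it does not measure the spread of the tumour pair alone. C6, the other measured member of this group, joins the pore before C8 and had a fitted log2 ratio of -0.06 ± 0.17.

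The C8 probes recognised by description were read beside C9, because C8 is the component that C9 joins. C8a, the alpha chain of C8, read 1215 and 1349 units in tumour, against 3223 and 3881 units in CAR-KO liver. Its fitted log2 ratio was -1.47 ± 0.19 (limma adjusted p = 0.00769). C8b, the beta chain, read 394 and 415 units in tumour, against 707 and 1058 units in CAR-KO liver, and its fitted log2 ratio was -1.10 ± 0.16 (limma adjusted p = 0.0123). For both genes the tumour readings were the lowest of all 12 channels. C8g, the gamma chain, is encoded elsewhere and had a fitted log2 ratio of -0.46 ± 0.25, which did not pass (adjusted p = 0.311). C8a and C8b are neighbours on mouse chromosome 4.

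**Figure D2:**
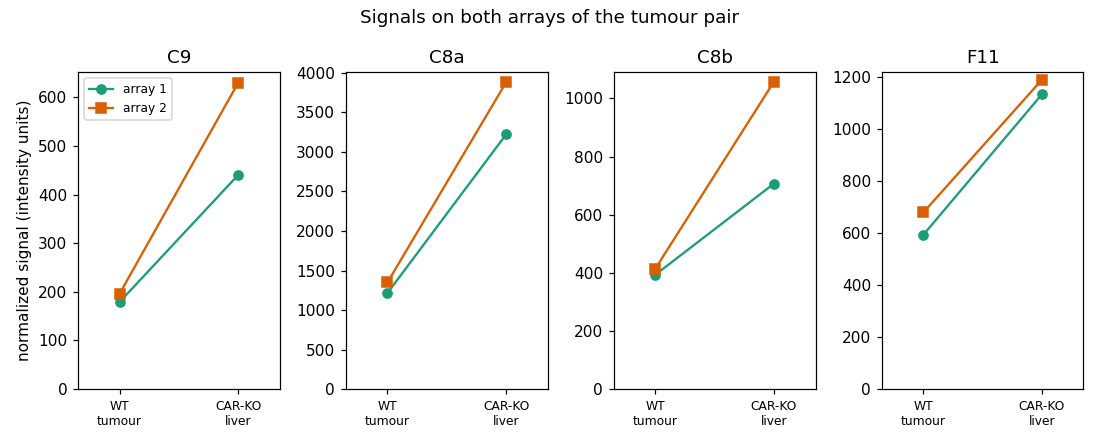
Normalized signals (vertical axes, intensity units) of C9, C8a, C8b and F11 in WT tumour (left) and CAR-KO liver (right), with a line for each array of the tumour pair. The tumour readings lie below the CAR-KO liver readings on both arrays, at 179 and 196 against 441 and 630 units for C9.

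The upstream parts of complement held no call. C1qa and C1qb, chains of the C1q recognition molecule, were on the positive side. C1qa read 1813 and 1355 units in tumour, against 1311 and 1055 units in CAR-KO liver, with a fitted log2 ratio of 0.41 ± 0.16 (adjusted p = 0.179). C1qb had log2 ratios of 0.40 and 0.25 (fitted 0.33 ± 0.18, adjusted p = 0.310), while C1qc, the chain encoded between them on chromosome 4, had -0.05 ± 0.17. None of these passed. Of 12 macrophage markers 8 were measured and none was called. Their log2 ratios ran from -0.84 to 0.72 with a median of -0.02, and their summed signal was 1569 and 1748 units in tumour, against 1530 and 2060 units in CAR-KO liver.

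The lectin starters Mbl1 and Mbl2 had fitted log2 ratios of 0.03 ± 0.19 and -0.03 ± 0.20. Their proteases Masp1 and Masp2 had -0.20 ± 0.15 and -0.40 ± 0.18. Among the convertase components, C2 had -0.28 ± 0.15, its neighbour and paralogue Cfb 0.16 ± 0.19, and the factor B protease Cfd -0.39 ± 0.15. The regulators Cfi, which cleaves C3b and C4b, and Serping1, the C1 inhibitor, had -0.28 ± 0.18 and -0.29 ± 0.37. No gene of these 3 groups passed. The C3 probe recognised by description had -0.69 ± 0.19 (adjusted p = 0.103), and was saturated in 6 of 12 channels, which limits that value.

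On the coagulation side, F11 read 593 and 678 units in tumour, against 1133 and 1189 units in CAR-KO liver. The log2 ratios were -0.93 and -0.81, and the fitted value was -0.87 ± 0.15 (SE, all 6 arrays), a 1.83-fold lower level in tumour (limma adjusted p = 0.0254). Over all 12 channels, F11 read 593 to 678 units in WT tumour, 1109 to 1244 units in CAR-KO liver with both agents, 1127 and 1147 units in CAR-KO liver with DEN alone, and 770 and 922 units in WT liver. The 4 ranges gave the order tumour, WT liver, CAR-KO liver. Tumour and WT liver never shared an array. For F11, neither tumour over WT liver (limma adjusted p = 0.605) nor WT liver over CAR-KO liver passed. The ranges of the CAR-KO groups overlapped each other and no WT range.

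F11 belongs to the contact system, whose other proteins were measured as well. Kng1, the kininogen that carries F11 and prekallikrein, read 2509 and 3984 units in tumour, against 4161 and 5728 units in CAR-KO liver. Its fitted log2 ratio was -0.63 ± 0.16 (limma adjusted p = 0.0894). Klkb1, prekallikrein, a paralogue of F11 and its neighbour on chromosome 8, had log2 ratios of -0.92 and -0.29 and a fitted value of -0.61 ± 0.18 (adjusted p = 0.117). F12, the protease that starts the contact pathway, had 0.23 ± 0.27. Of the 4 contact genes, only F11 passed.

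F5, the cofactor of factor Xa, had the highest ratio of the members. It read 490 and 596 units in tumour, against 363 and 401 units in CAR-KO liver, with no overlap. The fitted log2 ratio was 0.50 ± 0.21 (limma adjusted p = 0.212). The initiators F3 and F7 had 0.15 ± 0.15 and -0.19 ± 0.22, and the vitamin K dependent proteins F2, F10 and Proc ran from -0.35 to -0.18, negative on both arrays in each case. F8 had -0.13 ± 0.19. F13b, the carrier subunit of the cross-linking enzyme, had 0.18 ± 0.21.

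Among inhibitors and fibrinolysis genes, antithrombin (Serpinc1) had 0.26 ± 0.39 and heparin cofactor II (Serpind1) -0.26 ± 0.16. Plg, the precursor of plasmin, read 8047 and 7110 units in tumour, against 13387 and 9453 units in CAR-KO liver (fitted log2 ratio -0.57 ± 0.36, adjusted p = 0.367). Its log2 ratios were -0.73 and -0.41 on the tumour arrays, and -0.28 and 2.33 on the PB arrays. The SEs and p-values of this paragraph take in the spread of the PB pair as well. The plasmin inhibitor Serpinf2 and the carboxypeptidase Cpb2, which protects fibrin, had -0.26 ± 0.26 and -0.29 ± 0.18. None passed. F9 and TFPIbeta, recognised by description, had -0.26 ± 0.16 and -0.03 ± 0.20.

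Of 62 other genes of the cascades, 35 were measured. In tumour over CAR-KO liver 1 was called higher and 1 lower, or 5.71% of those measured, with 13 positive and 22 negative ratios and a median of -0.15. Fgg, the fibrinogen gamma chain, read 14660 and 15274 units in tumour, against 40397 and 36036 units in CAR-KO liver. Its fitted log2 ratio was -1.35 ± 0.17 (limma adjusted p = 0.00806). Plat, tissue plasminogen activator, was higher in tumour, at 0.83 and 0.92 (fitted 0.87 ± 0.16, adjusted p = 0.0283).

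The stretches before the starts of C9 and F11 are shown because these were the members called. They come from RefSeq (GRCm38.p6), the first from chr15:6445096-6445345 on the plus strand and the second from chr8:45262032-45262281 on the minus strand. Each is 5′ to 3′ in 250 bases that end just before the annotated start, and capitals mark a match to TTGCNNAA, a C/EBP-type motif, on either strand.
C9: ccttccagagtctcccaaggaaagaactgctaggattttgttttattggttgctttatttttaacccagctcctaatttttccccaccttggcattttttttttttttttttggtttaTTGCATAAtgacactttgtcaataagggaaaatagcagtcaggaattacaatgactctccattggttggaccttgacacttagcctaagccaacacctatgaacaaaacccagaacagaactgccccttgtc
F11: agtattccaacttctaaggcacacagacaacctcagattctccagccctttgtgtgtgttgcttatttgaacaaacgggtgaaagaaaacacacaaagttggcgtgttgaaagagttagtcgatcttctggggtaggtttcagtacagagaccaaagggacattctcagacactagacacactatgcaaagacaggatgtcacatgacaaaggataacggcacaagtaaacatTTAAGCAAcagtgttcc
RefSeq gave such a stretch for 22 of the 31 members, and TTGCNNAA was found in 3 of them (13.6%), those of C9, F11 and Klkb1, against 9.56% of 32851 mouse promoters. GTTAAT, only a part of the HNF1 site, was found in 1 (F13b) of the 22, and in 6.43% of all promoters. The HNF4 motif CAAAGTCCA was found in none of the 22, and in 0.384% of all. No member's stretch held more than 1 of these motifs, so none overlapped. The motifs were chosen with the results known, and a match describes letters, not a bound site. Of 10 measured liver transcription factor genes, 5 had a positive and 5 a negative ratio in tumour over CAR-KO liver, and only Nr1i3 was called. Cebpa, the gene of C/EBPalpha, had log2 ratios of -1.04 and -0.02 on arrays 1 and 2 (fitted -0.53 ± 0.16, limma adjusted p = 0.123). Cebpb, the gene of C/EBPbeta, had 0.46 and 0.47 (fitted 0.46 ± 0.19, adjusted p = 0.204).

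Markers of hepatocytes, the main source of these RNAs, had negative fitted values in tumour too. The 5 measured of 10 (Apoa1, Ttr, Hnf4a, Tdo2 and Ahsg) had values from -0.63 to -0.12, and none passed. Apoa1 differed between the arrays, at -0.68 and 0.43, and the other 4 were negative on both. Each was well above background in all 12 channels. Their summed signal was 47394 and 57188 units in tumour, against 72941 and 82876 units in CAR-KO liver. Most of that sum was Ahsg, with 40655 and 49562 units in tumour, against 62867 and 76299 units in CAR-KO liver, and Ahsg was saturated in 4 of 12 channels. Their part in the ratios of C9 and F11 was not tested. In bulk RNA, fewer cells of a type and less RNA per cell cannot be told apart. Krt19, a cholangiocyte marker that was well above background in 11 of 12 channels, was called higher in tumour at 1.13. The other cholangiocyte markers measured, Krt7, Epcam and Spp1, had 0.03, -0.03 and -0.23, and none of them passed.

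The calls of C9 and F11 depended on the processing. Their sign held in all 15 alternatives run, but C9 passed in 7 and F11 in 6. C9 was -0.80 without array 2 of the tumour pair, while array 1 itself read -1.30. That fit rests on array 1 for tumour and takes its dye term from the other pairs. The limma adjusted p of C9 was 0.0580 when either array of the genotype pair was left out. For F11 the adjusted p was 0.0710 without either array of the genotype pair, 0.050007 without array 1 of the tumour pair and 0.0857 when either PB-pair array was left out. C8b had 0.0555 when either PB-pair array was left out, while C8a passed in every fit that left out an array. With median centring of each array in place of loess, 4 members (C1qa, Cfb, F2 and F5) were called higher and 2 (C9 and Cfd) lower, against 0 and 2 with loess. In that setting 19.9% of all probes were called, and 17 of the 22 members with a negative ratio turned positive, Kng1 and Plg among them, while F3 turned negative. The C3 and C8g probes turned positive as well, at 0.07 and 0.06.

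**Figure D3:**
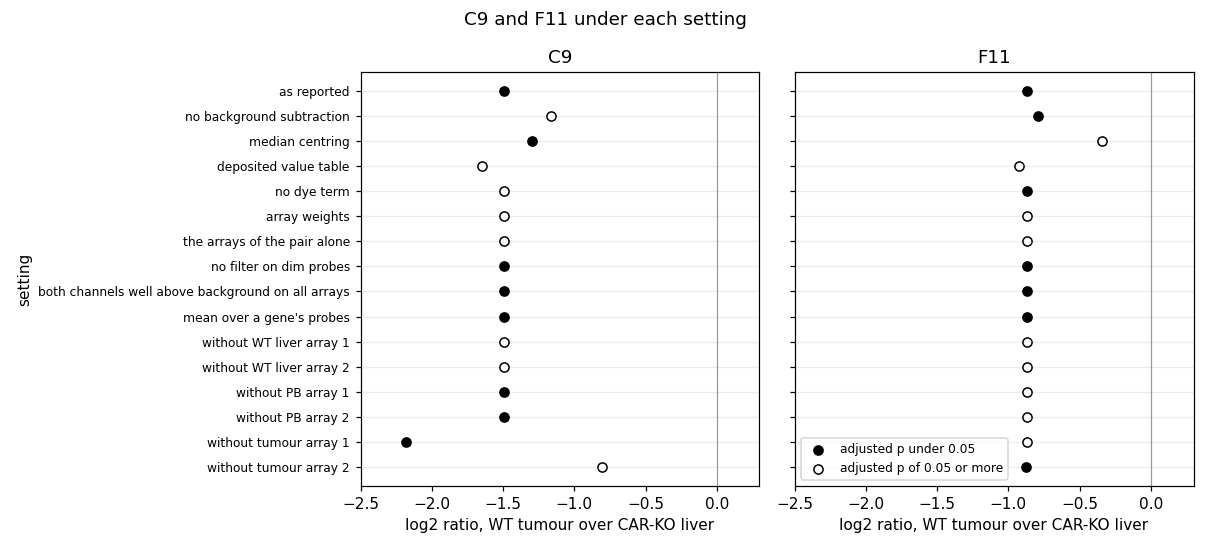
Log2 ratio of WT tumour over CAR-KO liver (horizontal axes) for C9 and F11 as reported and under each of the 15 alternatives (vertical axis), with filled points where the adjusted p was under 0.05. All points lie left of 0, C9 between -2.18 and -0.80 and F11 between -0.93 and -0.34, and 7 of the alternatives are filled for C9 and 6 for F11.

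In CAR-KO liver, with PB added to DEN over DEN alone, no member was called, and 0% of all probes were (limma adjusted p under 0.05), while 6 members and 565 of 20742 probes had an unadjusted p under 0.05. The fitted log2 ratio was positive for 24 members and negative for 7, where 47.7% of all probes were positive and 52.3% negative. The members' values ran from -0.43 to 1.32 with a median of 0.19, against -0.01 over all probes. These values came from array 2. Without it the members' median was 0.01, and without array 1 it was 0.39. On array 2, 10 of the 31 members (32.3%) had a log2 ratio above 1 and 1 was below -1, against 2.30% and 0.729% of probes. On array 1 no member passed either bound, and 0.0628% and 0.130% of probes did.

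Antithrombin (Serpinc1), which blocks thrombin and factor Xa, showed this most. It read 1270 and 1610 units with PB on arrays 1 and 2, against 1377 and 239 units with DEN alone. Its log2 ratios were -0.12 and 2.75 (fitted 1.32 ± 0.39, limma adjusted p = 1.0). Plg read 9265 and 11824 units with PB, against 11270 and 2349 units with DEN alone, and Serping1 read 1608 and 1279 units with PB, against 1784 and 267 units with DEN alone. Serpinf2 and F12 had -0.04 and 1.74, and -0.13 and 1.65. In each case the reading that stood apart was DEN alone on array 2.

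Not all members followed. F13b read 698 and 620 units with PB, against 632 and 1241 units with DEN alone (log2 ratios 0.14 and -1.001), and Cpb2 and Cfi had 0.09 and -0.69, and 0.16 and -0.65. F11 had 0.02 and 0.12. The DEN-alone channel of array 2 held the lowest of the 12 readings for 14 of the 31 members and the highest for 5. That count was not made over all probes, so it shows no trait of the members. Genes outside the list split in the same manner, with -0.40 and 2.79 for the hepatocyte marker Apoa1 and 0.06 and 2.03 for the complement regulator Vtn. What set that channel apart was not tested. No other gene of the cascades was called among the 35 measured (2 had an unadjusted p under 0.05).

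**Figure D4:**
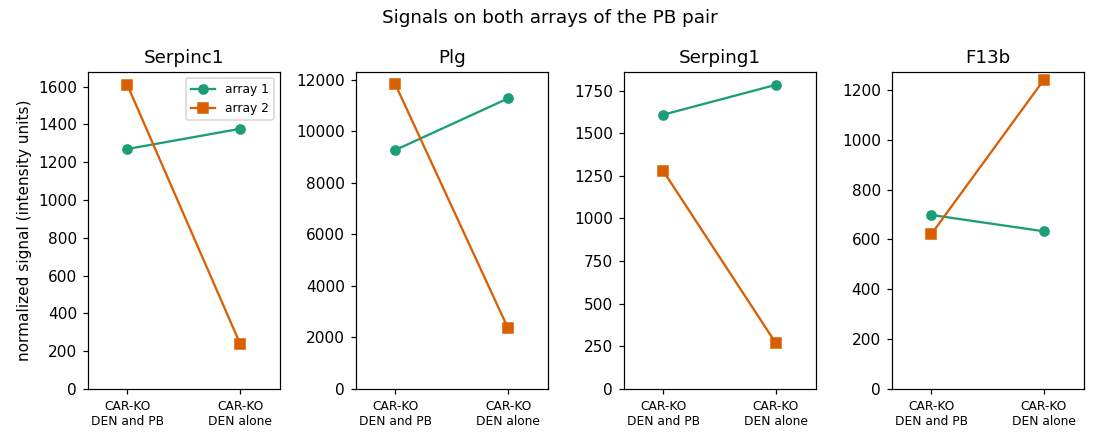
Normalized signals (vertical axes, intensity units) of Serpinc1, Plg, Serping1 and F13b in CAR-KO liver with both agents (left) and with DEN alone (right), with a line for each array of the PB pair. The arrays lie nearer together with PB than with DEN alone in each panel, and with DEN alone array 2 read 239 units for Serpinc1, against 1377 units on array 1.

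In the genotype pair, CAR-KO liver and WT liver after DEN and PB were compared as WT over CAR-KO, so a negative ratio means more RNA in CAR-KO liver. No member was called, and 0.101% of all probes were (0.0916% higher and 0.00964% lower in WT), while 1 member (F11) and 471 of 20743 probes had an unadjusted p under 0.05. Of the members, 19 had a negative and 12 a positive ratio, where 55% of all probes were negative and 45% positive. The members' values ran from -0.45 to 0.25 with a median of -0.01, against -0.02 over all probes. That median was 0.01 without array 1 of the pair and -0.09 without array 2.

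F11 read 1193 and 1109 units in CAR-KO liver, against 922 and 770 units in WT liver, with no overlap. Its log2 ratios of WT over CAR-KO were -0.37 and -0.53 (fitted -0.45 ± 0.15), which did not pass (limma adjusted p = 1.0). Its neighbour Klkb1 had -0.07 and -0.58 (fitted -0.33 ± 0.18), and Serpinf2 -0.11 and -0.32 (-0.22 ± 0.26). At the other end, Serpinc1 had 0.52 and -0.02 (0.25 ± 0.39), F10 0.25 and 0.11 (0.18 ± 0.23), and C1qa 0.05 and 0.16 (0.11 ± 0.16). C9 had -0.18 ± 0.31. C8a and C8b had -0.48 and -0.38, negative on both arrays, and did not pass either. None of the 35 other cascade genes was called, and 0 had an unadjusted p under 0.05.

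WT tumour was never on an array with WT liver, so that comparison is the difference between the tumour and the genotype ratios. No member was called, and 0% of all probes were, while 1 member (C9) and 1737 of 20743 probes had an unadjusted p under 0.05. The members' median log2 ratio of tumour over WT liver was -0.15, against -0.01 over all probes, with 21 negative and 10 positive, where 50.9% of all probes were negative and 49.1% positive. With median centring that median turned to 0.55, with no member called and 0.227% of all probes called. In that setting 13 of 31 members and 5360 of 20743 probes had an unadjusted p under 0.05. With loess the members' median was -0.27 without tumour array 1, -0.09 without tumour array 2 and -0.10 without genotype array 2. C9 was lowest at -1.32 ± 0.44 (limma adjusted p = 0.562). It was -2.01 without array 1 of the tumour pair, a fit that rests on array 2 for tumour and takes its dye term from the other pairs. Plg and F10 had -0.56 ± 0.51 and -0.53 ± 0.32. F5 was highest at 0.55 ± 0.30, followed by C1qb at 0.31 ± 0.25 and C1qa at 0.31 ± 0.23. F11 had -0.42 ± 0.21 in this comparison.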

How the data were processed

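RNA from liver or liver tumour was measured on 6 Agilent 2-colour arrays. The scanner files give mean signals and local background medians, deposited by the authors as intensity values without normalization. The deposited value table holds log10 ratios (red over green, processed signals), and the spot flags are deposited in further columns. The scanner software was Feature Extraction 7.1.1 on 5 arrays, with 7.5.1 on tumour array 2, per the file headers, and 7.5 per the submitters' processing notes.

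Signals were corrected with normexp (offset 50), normalized by loess within each array, and averaged over the spots of a probe, leaving out control spots and outlier-flagged spots. Of 20868 probes, 10116 had a symbol. The log2 ratios of all 6 arrays were fitted in 1 model with limma 3.58.1 (R 4.3.3), with 3 comparisons, a dye term, 2 residual and 5.48 prior degrees of freedom. Probes with a channel well above background on at least 2 arrays were tested. Signals printed were scaled between arrays by their average intensity (Aquantile). The fit was tested on simulated data. Values on both arrays are given for members called in any comparison and for the 3 highest and lowest per comparison. A gene of the other cascade genes is not reported here and is left out of their counts. The members, lists and alternatives were chosen with earlier results of these data known. The files name no genome build, so RefSeq's (GRCm38.p6) served only for names, neighbours and promoters.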

Additional observations from a re-analysis of the deposited data

How the results depend on the processing

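No block could be fitted beyond the pairing of RNAs within each array, which the ratios already hold, because each slide and scan held 1 array. In WT tumour over CAR-KO liver, where 2 members were called, 1 was called with no background subtraction, 6 with median centring (4 higher and 2 lower), 0 with the deposited value table (4 at an unadjusted p under 0.05), 1 with no dye term, 0 with array weights (4 at an unadjusted p under 0.05), and 0 with the arrays of the pair alone (4 at an unadjusted p under 0.05). Of all probes, 2.44%, 19.9%, 0%, 2.25%, 1.14% and 0.299% were called in these settings, in the same order. With the deposited value table, array weights and the arrays of the pair alone, 2860, 2712 and 2010 of 20744 probes had an unadjusted p under 0.05. The cause of these differences was not tested. With median centring the members' median was 0.41 in the PB comparison, against 0.19 with loess, and -0.11 in the genotype comparison, against -0.01 with loess. For WT tumour over CAR-KO liver, leaving out either genotype array gave 0 member calls (2.02% of all probes were called). Leaving out either PB-pair array gave 1, C9 (1.37% of all probes). Fits without 1 tumour array rest on the other alone for tumour. There C9 was -2.18 without array 1 and -0.80 without array 2, and F11 was -0.87 in both. In the genotype and PB comparisons limma called 0 members in every alternative (1 and 6 at an unadjusted p under 0.05 in the fits as reported). Fgg passed in 13 and Plat in 8 of 15 alternatives, and C8a in 13 and C8b in 10, each with its sign kept. Cfd and F3, above background in 9 of 12 channels, are the members whose values are limited most by signal over background.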
